A study of Mus musculus with 8 samples.

Results

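Transcript levels and ribosome footprints of 10 adipogenic transcription factor genes were described in inguinal white adipose tissue (iWAT) of cold-exposed mice. The genes were taken by symbol and are 10 of the 17264 genes in the tables. They are the nuclear receptors Pparg (ENSMUSG00000000440), Ppara (ENSMUSG00000022383), Rxra (ENSMUSG00000015846) and Esrra (ENSMUSG00000024955), the CCAAT/enhancer binding proteins Cebpa (ENSMUSG00000034957), Cebpb (ENSMUSG00000056501) and Cebpd (ENSMUSG00000071637), the early B cell factors Ebf1 (ENSMUSG00000057098) and Ebf2 (ENSMUSG00000022053), and the Kruppel-like factor Klf15 (ENSMUSG00000030087). All 10 passed the minimum mean of 0.5 RPKM in each assay. RPKM is the number of reads of a gene relative to its length and to the depth of the library. The length was that of the transcript for RNA-seq and of the coding sequence for Ribo-seq.

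The mice were males on a C57BL/6 background, aged 9 weeks, that were housed singly at 4 °C for 7 days. Y1CTL mice carried Ythdf1 flox/flox alleles, in which loxP sites flank exon 4, and no Cre. Y1cKO mice carried the same alleles together with Adipoq-Cre, a transgene driven by the adiponectin promoter, which is active in adipocytes. Both genotypes shared the floxed alleles and the cold, and no mice kept warm enter the comparisons. Each genotype had 2 RNA-seq libraries of polyadenylated RNA and 2 Ribo-seq libraries of ribosome-protected fragments, all from lysates of whole iWAT, which also holds cells that do not express this Cre. In bulk samples, fewer cells of a type and less RNA per cell cannot be told apart. Whether replicates came from separate mice is not stated, so that the spread behind each p-value is that between libraries and may be technical.

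Fat cell formation is run by a cascade of these factors. CEBPB and CEBPD come first after a hormonal stimulus, and they help switch on Pparg and Cebpa, which then maintain each other and turn on the genes of the mature adipocyte. PPARG binds DNA as a pair with the retinoid X receptor RXRA, EBF1 and EBF2 act with PPARG at adipocyte enhancers, EBF2 marks brown and beige fat cells, and PPARA and ESRRA drive genes of fatty acid oxidation and mitochondria. Ythdf1 encodes a protein that binds methylated adenosine (m6A) in mRNA and has been linked to translation, which is why footprints and transcripts were both measured.

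RNA-seq libraries held 3958284 and 4963613 reads in Y1CTL and 12211351 and 16429015 reads in Y1cKO, and Ribo-seq libraries held 7364523 to 11862838 reads. All 10 of 10 adipocyte markers were above 0 in each library. Ythdf1 itself had 8.01 and 11.5 RPKM in Y1CTL and 7.17 and 7.98 RPKM in Y1cKO by RNA-seq. Its Ribo-seq values were 17.3 and 16.0 RPKM in Y1CTL and 12.7 and 15.7 RPKM in Y1cKO. Single libraries stood apart. In RNA-seq, 13 markers of B cells and lymph nodes summed to 280 RPKM in replicate 2 of Y1CTL and to 3.41 to 5.85 RPKM elsewhere, while 15 beige and brown adipocyte markers summed to 455 RPKM in replicate 1 of Y1cKO and to 1552 to 3066 RPKM elsewhere. In Ribo-seq the summed beige level was 4374 RPKM in Y1CTL replicate 2 and 8372 to 11401 RPKM in the other libraries. The B cell and lymph node markers were high in every Ribo-seq library, with sums of 689 to 878 RPKM.

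The 3 members with the most footprints were Cebpa, Pparg and Cebpb, and a promoter window of each is shown because these genes form the core of the cascade described above. RefSeq (GRCm38.p6) gave 12 windows of 250 bases upstream of a start for 8 of the 10 members, and none for Cebpd and Ebf2. For the expression values the authors name another build, mm8, which was not checked, and no expression value was read from these coordinates. Capitals mark TATAAA (the TATA box), CCAAT (the CCAAT box), TTGCNNAA (a core bound by CEBP proteins) and TGACG (part of the cyclic AMP response element) on either strand. In the Pparg window CCAAT and a reverse TTGCNNAA match stand next to each other near the start without sharing a base.
Pparg, the third of 3 starts, chr6:115421816-115422065, plus strand: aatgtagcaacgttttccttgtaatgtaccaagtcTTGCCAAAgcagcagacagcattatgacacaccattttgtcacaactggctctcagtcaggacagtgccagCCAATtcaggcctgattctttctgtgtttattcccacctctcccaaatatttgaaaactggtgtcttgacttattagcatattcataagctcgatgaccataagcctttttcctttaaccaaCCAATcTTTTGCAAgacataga
Cebpa, chr7:35119043-35119292, plus strand: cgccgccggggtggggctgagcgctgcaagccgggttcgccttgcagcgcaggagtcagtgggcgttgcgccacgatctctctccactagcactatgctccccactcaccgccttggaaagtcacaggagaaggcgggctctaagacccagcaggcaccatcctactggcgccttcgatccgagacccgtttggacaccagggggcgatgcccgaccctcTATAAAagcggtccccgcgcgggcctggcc
Cebpb, chr2:167688665-167688914, plus strand: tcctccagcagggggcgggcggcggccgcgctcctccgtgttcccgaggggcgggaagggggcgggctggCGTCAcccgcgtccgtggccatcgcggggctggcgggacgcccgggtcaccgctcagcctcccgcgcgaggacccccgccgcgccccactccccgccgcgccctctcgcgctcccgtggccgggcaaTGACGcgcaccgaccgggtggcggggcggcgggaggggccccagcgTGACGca

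The 3 windows differ in what they hold. The Pparg window has CCAAT 144 and 22 bases before the start and TTGCNNAA 215 and 16 bases before it, counted to the first base of the match, and its GC content is 40.8%. The Cebpa window has TATAAA 30 bases before the start and a GC content of 66.4%, and the Cebpb window has TGACG 180, 53 and 7 bases before the start and a GC content of 81.6%. Over all 32851 promoter windows of the same length, TATAAA stood in 12.4%, CCAAT in 33.8%, TTGCNNAA in 9.56% and TGACG in 17.8%. Among the 12 member windows, TTGCNNAA stood only in that of the third Pparg start, CCAAT also in those of the second Pparg start and of Klf15, TATAAA in those of Cebpa and the second Pparg start, and TGACG also in windows of Ppara and Klf15. The full palindromes TGACGTCA and TTGCGCAA stood in 0 of 12 member windows, beside 1.55% and 0.164% of all windows. A window without a match says only that these letters are not in it. The median GC content was 67.4% in the member windows and 52.4% in all windows, and 9 of 12 member windows lay above the latter.

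Cebpa had the highest level of the 10 in both assays. Its Ribo-seq value averaged 320 ± 83.4 RPKM (SD, n = 4 libraries), followed by Pparg with 205 ± 14.5 RPKM and Cebpb with 120 ± 9.02 RPKM. The ranges of these 3 genes did not overlap one another or that of the next gene, Ebf1, at 38.6 ± 6.74 RPKM. Below them the Ribo-seq means were 27.5 RPKM for Rxra, 22.5 RPKM for Ppara, 17.5 RPKM for Esrra, 16.9 RPKM for Cebpd, 14.4 RPKM for Klf15 and 12.02 RPKM for Ebf2. From Ebf1 down, each neighbour overlapped the next, so that no 2 neighbours differed beyond the spread of the libraries. Ebf1 at 29.8 to 45.8 RPKM and Rxra at 25.4 to 31.6 RPKM nevertheless lay wholly above Esrra, Cebpd, Klf15 and Ebf2, of which the highest value in any library was 20.4 RPKM, while Ppara overlapped all of the other 6 from Ebf1 down.

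The order by RNA-seq began with the same 5 genes and ended with another. Means were 157 ± 73.2 RPKM for Cebpa, 112 ± 26.6 RPKM for Pparg, 70.4 ± 22.0 RPKM for Cebpb, 41.4 ± 2.202 RPKM for Ebf1 and 37.5 ± 11.6 RPKM for Rxra, and neighbours in this run overlapped. A gap separated Rxra from Esrra, Klf15, Ebf2 and Ppara at means of 20.2, 14.8, 11.4 and 7.90 RPKM. A second gap separated Ppara from Cebpd at 1.81 ± 1.19 RPKM. All 10 genes kept their places in both assays when the libraries of each assay were scaled to the same median, although the RNA-seq ranges of Pparg and Cebpb then no longer overlapped.

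**Figure D1:**
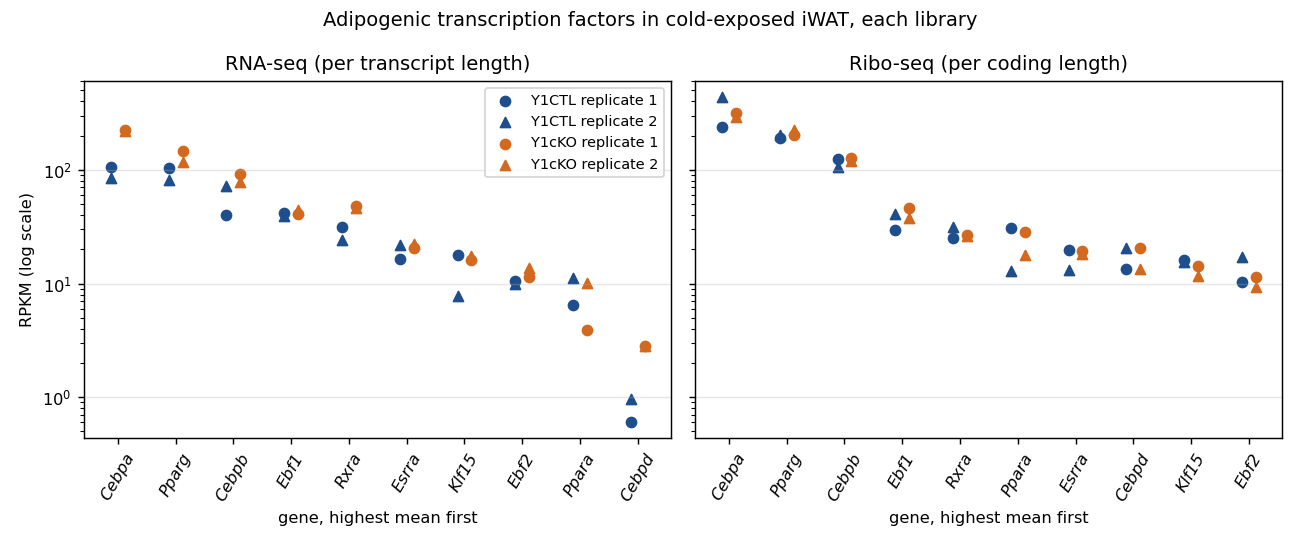
RPKM on a log axis for each of the 10 genes in each of the 8 libraries, in RNA-seq on the left and Ribo-seq on the right, with genes ordered by their mean and replicates as circles and triangles. Cebpa leads both panels, with means of 157 and 320 RPKM, and Cebpd is last by RNA-seq at 1.81 RPKM but eighth by Ribo-seq at 16.9 RPKM.

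The first comparison asked whether transcript levels of these factors differed between Y1cKO and Y1CTL. Cebpa, Cebpb, Cebpd, Pparg, Rxra and Ebf2 had more RPKM in both Y1cKO libraries than in both Y1CTL libraries, which is 6 of 10 members beside 36.9% of the 12435 genes tested. In the opposite direction the count was 0 of 10, beside 10.7% of genes. None passed an adjusted p of 0.05 from limma, as for all genes (0% called), and 3 of 10 had an unadjusted p under 0.05, beside 11.8% of genes (1468), while voom on the reads gave 3 of 10 and 1332 genes. The median log2 difference of the 10 members was 0.49 and that of all genes tested was 0.17, which scaling of the libraries to the same median brought to 0.01.

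Marker lists of cell types were set beside these RNA-seq values. Of the adipocyte markers 10 of 10 lay above 0, with a median log2 difference of 0.55, and they summed to 8859 to 13475 RPKM in Y1CTL and 16576 to 16784 RPKM in Y1cKO. Endothelial markers lay above 0 in 12 of 12, with a median of 0.44, and summed to 327 to 425 RPKM in Y1CTL and 411 to 491 RPKM in Y1cKO. Skeletal muscle markers lay above 0 in 12 of 13, with a median of 2.63, and summed to 24.0 to 33.6 RPKM in Y1CTL, 337 RPKM in replicate 1 of Y1cKO and 47.4 RPKM in replicate 2 of Y1cKO. Beige and brown adipocyte markers lay above 0 in 2 of 15 (median -1.47). B cell and lymph node markers did so in 0 of 13 (median -2.24) and T cell markers in 0 of 12 (median -1.87). Among the RNA-seq libraries both of these lists were high in Y1CTL replicate 2 alone. By Ribo-seq T cell markers summed to 429 to 564 RPKM and B cell and lymph node markers to 689 to 878 RPKM. By RNA-seq progenitor and fibroblast markers lay above 0 in 10 of 13 (median 0.49), and macrophage and monocyte markers in 7 of 11 (median 0.27). The median of all genes tested was 0.17. The part of these markers in the values of the members was not tested.

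Among the CEBP genes, Cebpa, which maintains the mature adipocyte, had RNA-seq values of 105 and 84.0 RPKM in Y1CTL and 223 and 218 RPKM in Y1cKO. The Y1cKO libraries were thus both above the Y1CTL libraries and nearly equal. The ratio of the means was 2.33, with a log2 difference of 1.23 (standard error 0.21, adjusted p = 0.401 from limma) and of 1.05 after scaling. Cebpa passed the test only without Y1CTL replicate 1 (1.39, adjusted p = 0.0323 from limma), a fit that also called 265 genes higher and 400 lower. It did not pass without Y1CTL replicate 2 (1.07, adjusted p = 0.0861), without Y1cKO replicate 1 (1.21, adjusted p = 0.997) or without Y1cKO replicate 2 (1.24, adjusted p = 0.927).

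Cebpd, an early factor, was the least abundant member by RNA-seq. It had 0.607 and 0.968 RPKM in Y1CTL, from 9 and 18 reads, and 2.84 and 2.83 RPKM in Y1cKO, from 130 and 174 reads. The exact Poisson 95% intervals, which cover counting error only, were 0.278 to 1.15 RPKM and 0.574 to 1.53 RPKM in Y1CTL and 2.37 to 3.37 RPKM and 2.42 to 3.28 RPKM in Y1cKO, so that the intervals of the genotypes did not meet. The ratio of the means was 3.60, and the log2 difference on the log2(RPKM + 0.5) scale was 1.39 (standard error 0.34, adjusted p = 0.401 from limma), which placed 99.1% of genes below it. This scale understates the change of so low a gene, and with a pseudocount of 0.1 the log2 difference was 1.76. Cebpb, the other early factor, had 39.98 and 71.5 RPKM in Y1CTL and 92.2 and 77.7 RPKM in Y1cKO. Its Y1CTL replicates differed by more than the gap between the genotypes, and the log2 difference was 0.66 (standard error 0.31, adjusted p = 0.463 from limma).

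Of the receptors, Rxra, the partner of PPARG, had 31.6 and 24.1 RPKM in Y1CTL and 48.5 and 45.7 RPKM in Y1cKO. The libraries did not overlap, with a ratio of means of 1.69 and a log2 difference of 0.76 (standard error 0.20, adjusted p = 0.402 from limma), or 0.59 after scaling. Pparg had 104 and 82.2 RPKM in Y1CTL and 146 and 117 RPKM in Y1cKO. These groups did not overlap either, but lay closer, with a log2 difference of 0.49 (standard error 0.22, adjusted p = 0.453 from limma), or 0.32 after scaling. Esrra, which acts with PGC-1 coactivators on mitochondrial genes, had 16.3 and 21.7 RPKM in Y1CTL and 20.6 and 22.3 RPKM in Y1cKO, which overlapped, and the log2 difference of 0.18 became -0.02 without Y1CTL replicate 1.

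The remaining factors varied less or without regard to genotype. Ebf2 had 10.4 and 9.91 RPKM in Y1CTL and 11.5 and 13.8 RPKM in Y1cKO, a log2 difference of 0.29. Ebf1 had 41.8 and 39.0 RPKM in Y1CTL and 40.6 and 44.2 RPKM in Y1cKO, which overlapped, and its log2 difference of 0.07 turned to -0.10 after scaling. EBF1 is also a factor of B cells, and Ebf1 was at 39.0 RPKM, its lowest RNA-seq value, in the library where Pax5, a B cell factor, was at 14.1 RPKM and not at 0 to 0.0913 RPKM as in the others. Klf15, which responds to glucocorticoids, had 17.7 and 7.79 RPKM in Y1CTL and 16.0 and 17.6 RPKM in Y1cKO. Only Y1CTL replicate 2 was low, so that the log2 difference of 0.49 became 1.06 without Y1CTL replicate 1 (adjusted p = 0.0436 from limma, in the fit that called 265 genes higher and 400 lower) and -0.07 without Y1CTL replicate 2 (adjusted p = 0.870).

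**Figure D2:**
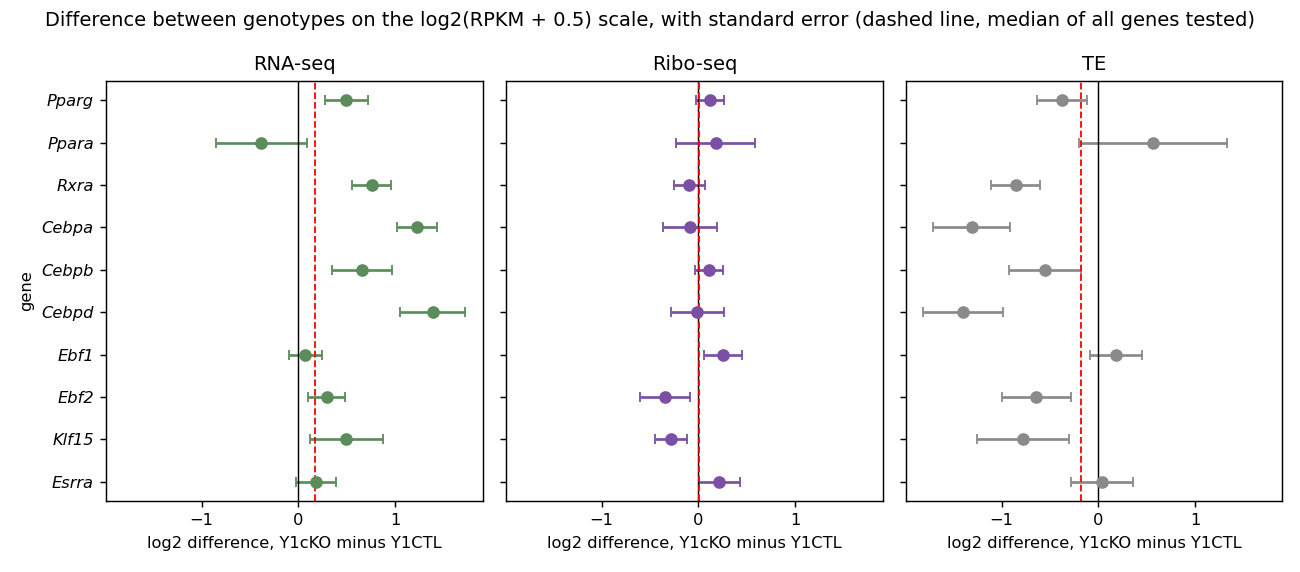
Log2 difference between Y1cKO and Y1CTL for each gene in RNA-seq, Ribo-seq and TE (the Ribo-seq less the RNA-seq difference), as points with their standard error from limma, with the median of all genes tested as a dashed line. In RNA-seq 9 of 10 points lie above 0, up to 1.39 for Cebpd, in Ribo-seq they lie between -0.35 and 0.25, and in TE 7 of 10 lie below 0.

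The second comparison asked the same of ribosome footprints. Ribo-seq differences were small for all 10 genes, between -0.35 for Ebf2 and 0.25 for Ebf1 on the log2 scale, with adjusted p = 1.00 from limma for each. Their median was 0.05, beside 0.01 over the 12602 genes tested. The count of members past an adjusted p of 0.05 was 0 of 10, as for all genes (0% called), and 0 of 10 had an unadjusted p under 0.05, beside 2.75% of genes (347), while voom gave 0 of 10 and 293 genes. Both Y1cKO libraries were higher than both Y1CTL libraries for 0 of 10 members, beside 15.4% of genes, and lower for 1 of 10, beside 14.1%. That 1 was Klf15.

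Pparg varied little between the Ribo-seq libraries. It had 192 and 202 RPKM in Y1CTL and 201 and 226 RPKM in Y1cKO, each from 2249 to 3451 reads. The groups overlapped and the log2 difference was 0.12 with a standard error of 0.14. Cebpb was close to it, with 124 and 107 RPKM in Y1CTL and 127 and 121 RPKM in Y1cKO, a log2 difference of 0.11 with a standard error of 0.14. Rxra had 25.4 and 31.6 RPKM in Y1CTL and 26.9 and 26.1 RPKM in Y1cKO, so that both Y1cKO values lay within the Y1CTL range.

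Cebpa and Cebpd, which stood highest in the RNA-seq comparison, varied within a genotype in Ribo-seq. Cebpa had 238 and 435 RPKM in Y1CTL and 316 and 290 RPKM in Y1cKO, and the Y1CTL values enclosed the Y1cKO values. Its log2 difference was -0.09 with a standard error of 0.28, and it became 0.35 without Y1CTL replicate 2 and -0.52 without Y1CTL replicate 1. Cebpd had 13.5 and 20.4 RPKM in Y1CTL and 20.4 and 13.4 RPKM in Y1cKO, from 97 to 156 reads. Each genotype thus held 1 high and 1 low library, and the log2 difference was -0.01 with a standard error of 0.27.

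For the other factors the sizes were as follows. Klf15 had 16.0 and 15.6 RPKM in Y1CTL and 14.4 and 11.6 RPKM in Y1cKO, a log2 difference of -0.29 with a standard error of 0.17. Ebf2 had 10.3 and 17.0 RPKM in Y1CTL and 11.5 and 9.24 RPKM in Y1cKO, where Y1CTL replicate 2 alone was high, and its log2 difference of -0.35 became 0.0011 without that library. Ebf1 had 29.8 and 41.0 RPKM in Y1CTL and 45.8 and 37.9 RPKM in Y1cKO, which overlapped. Esrra had 19.5 and 13.2 RPKM in Y1CTL and 19.5 and 18.0 RPKM in Y1cKO, with Y1CTL replicate 2 alone low, and its log2 difference of 0.22 became -0.06 without it.

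The third comparison set footprints against transcripts. Translational efficiency (TE) is the Ribo-seq over the RNA-seq value of a gene, and a model of all 8 libraries tested whether this ratio differed between genotypes, as an assay by genotype term. It was -1.40 for Cebpd (standard error 0.41), -1.31 for Cebpa (standard error 0.39) and -0.85 for Rxra (standard error 0.26) on the log2 scale, each with adjusted p = 0.563 from limma. These are the genes whose RNA-seq differences were the largest of the 10 while their Ribo-seq differences were -0.01, -0.09 and -0.09. After scaling, the TE differences were -1.28, -1.15 and -0.69.

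The median TE difference of the members was -0.59, beside -0.17 over the 11792 genes tested, which scaling brought to -0.02. It was -0.68 for adipocyte, -0.53 for endothelial and -0.50 for progenitor and fibroblast markers, and -0.46 for adipocyte target genes of PPARG and CEBPA. It was 0.66 for oxidative target genes of PPARA and ESRRA, 1.20 for beige and brown, 2.53 for B cell and lymph node and 1.98 for T cell markers. The other lists lay between -2.01 (skeletal muscle markers) and -0.15 (paralogs). Members past an adjusted p of 0.05 numbered 0 of 10, as for all genes (0% called), and 3 of 10 had an unadjusted p under 0.05, beside 8.66% of genes (1021). Klf15 had a TE difference of -0.78, Ebf2 of -0.64, Cebpb of -0.55, Pparg of -0.38, Esrra of 0.04, Ebf1 of 0.18 and Ppara of 0.56, none of which passed the test. Without Y1CTL replicate 1 (in both assays) 3 members passed, namely Cebpa at -1.91 (adjusted p = 0.00894 from limma), Rxra at -1.20 (adjusted p = 0.0273) and Klf15 at -1.33 (adjusted p = 0.0383), in a fit that called 508 genes higher and 455 lower. Without Y1CTL replicate 2, 0 genes were called, and the 3 values were -0.72 (adjusted p = 0.364), -0.51 (adjusted p = 0.454) and -0.23 (adjusted p = 0.792). Leaving out either Y1cKO replicate also gave 0 genes. The Y1CTL RNA-seq libraries, which enter each of these values, were the shallowest of the series, and the part of depth in the result was not tested.

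The last comparison placed each member among all genes by its TE level, the log2 Ribo-seq less the log2 RNA-seq value over both genotypes, with the median of the tested genes in each library taken off. On this scale the median TE level over all genes was 0.11, so that a value of 0 is not the median gene. Cebpd stood high, at 2.22 (standard error 0.29, adjusted p = 0.000141 from limma), above 93.6% of genes. It was 1 of 10 members called higher, beside 39.3% of genes. Called lower were 5 of 10, beside 33.5% of genes, and these were Rxra at -1.22, Esrra at -1.04, Ebf1 at -0.95, Klf15 at -0.81 and Ebf2 at -0.79. Ppara at 0.64, Cebpa at 0.28, Pparg at 0.06 and Cebpb at -0.01 did not pass the test.

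TE was also set out for each pair of same-numbered libraries, although deviations of the paired libraries did not go together across genes (correlation -0.14 in Y1CTL and -0.24 in Y1cKO) and the table headers of Y1cKO swap the numbers, so that a value of 1 pair may join libraries of different animals. For Cebpd the log2 values, with the median of each library taken off, were 2.74 and 2.94 in Y1CTL and 1.98 and 1.21 in Y1cKO. They were positive in all 4 pairs and lower in both Y1cKO pairs. Cebpd was the highest of the 10 in each pair but Y1cKO replicate 1, where Ppara stood at 2.04. Rxra had -1.24 and -0.51 in Y1CTL and -1.50 and -1.65 in Y1cKO, negative in all 4 pairs. Cebpa had 0.25 and 1.47 in Y1CTL and -0.16 and -0.44 in Y1cKO, so that its sign differed between the genotypes.

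RNA-seq values are per transcript length, and the transcript models of the members differ. The Cebpd model is 3746 bases long with 2903 bases after the coding sequence and only 21.5% coding, while the Rxra model has 3 bases after the coding sequence and is 91.4% coding, beside a median of 54.6% over all genes. The TE level therefore rests on whether RNA-seq reads covered the whole model, which was not tested. A difference between genotypes uses 1 model in both groups. Marker lists of cell types differed in TE level as well. Medians were 3.48 for B cell and lymph node, 3.55 for T cell, 2.91 for macrophage and monocyte and 2.06 for progenitor and fibroblast markers. They were 1.53 for beige and brown, 0.90 for adipocyte, -0.55 for skeletal muscle and -0.94 for endothelial markers, beside 0.11 over all genes. The part of cell content, which may differ between the assays, in the TE values was not tested. Klf15 was no longer called without Y1CTL replicate 1 (-0.73, adjusted p = 0.0549 from limma), without Y1cKO replicate 1 (-0.81, adjusted p = 0.0837), without Y1cKO replicate 2 (-0.61, adjusted p = 0.140) or with no filter on low values (-0.66, adjusted p = 0.0549), and Ebf2 was no longer called without Y1cKO replicate 2 (-0.58, adjusted p = 0.0510). Without the centring, the median gene stood at 0.94, and 5 of 10 members were called higher and 0 lower, beside 7421 and 1685 of the 11792 genes.

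**Figure D3:**
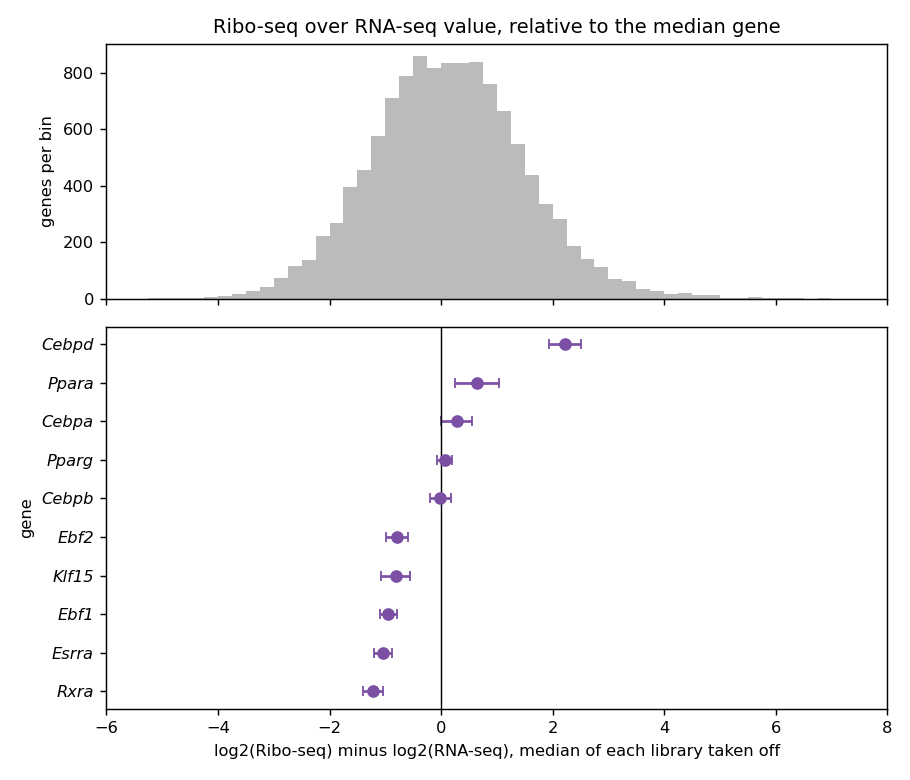
Upper panel, number of genes per bin of the log2 Ribo-seq less the log2 RNA-seq value, with the median of each library taken off, for 11792 genes. Lower panel, the same value for each of the 10 genes with its standard error from limma, where Cebpd stands at 2.22 and Rxra, the lowest, at -1.22.

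Ppara, the receptor of the fasting and oxidative program, was the member whose values moved most between libraries of 1 genotype. By RNA-seq it had 6.44 and 11.1 RPKM in Y1CTL and 3.93 and 10.1 RPKM in Y1cKO. Its Ribo-seq values were 30.8 and 12.9 RPKM in Y1CTL and 28.5 and 18.0 RPKM in Y1cKO. By the labels, replicate 2 was the higher of each genotype by RNA-seq and the lower by Ribo-seq. The column headers of the Y1cKO RNA-seq values swap the numbers, and with these replicate 2 of Y1cKO would be the lower in both assays. The genotypes overlapped in both assays. The log2 difference was -0.39 by RNA-seq (standard error 0.47, adjusted p = 0.735 from limma) and 0.18 by Ribo-seq. It became 0.24 by RNA-seq without Y1cKO replicate 1 and -0.44 by Ribo-seq without Y1CTL replicate 2.

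Thermogenic markers moved beside Ppara. Ucp1, the uncoupling protein of brown and beige fat, had 609 and 1441 RPKM in Y1CTL and 48.1 and 544 RPKM in Y1cKO by RNA-seq. By Ribo-seq Ucp1 had 3586 and 955 RPKM in Y1CTL and 3164 and 2481 RPKM in Y1cKO. In both assays the lowest Ucp1 value and the lowest Ppara value were in the same library, Y1cKO replicate 1 by RNA-seq and Y1CTL replicate 2 by Ribo-seq. Between the Y1CTL Ribo-seq replicates, 15 of 15 beige and brown markers were higher in replicate 1, with a median ratio of 3.31, and by RNA-seq 3 of 15 were, with a median ratio of 0.668. The part of these markers in the Ppara values was not tested.

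**Figure D4:**
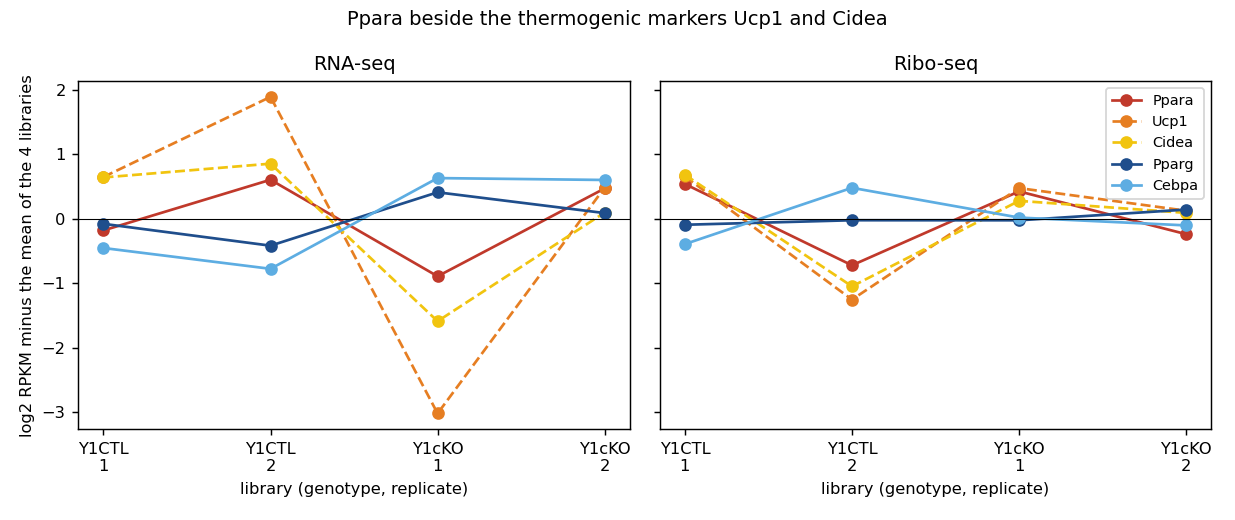
Log2 RPKM of Ppara, of Ucp1 and Cidea (dashed) and of Pparg and Cebpa in each library, less the mean of the 4 libraries of the assay, in RNA-seq on the left and Ribo-seq on the right. Ppara, Ucp1 and Cidea are lowest in Y1cKO replicate 1 by RNA-seq, where Ppara has 3.93 RPKM, and in Y1CTL replicate 2 by Ribo-seq, where it has 12.9 RPKM.

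The genes most like each member were those with the smallest root mean square difference over the 8 libraries, after the mean of each assay was taken from log2(RPKM + 0.5). For Ppara they were Ldhb, a lactate dehydrogenase subunit, at 0.16 and Acadvl, an enzyme of fatty acid oxidation, at 0.18, beside a median of 0.61 over all 11792 genes. Ldhb had 78.3 and 109 RPKM in Y1CTL and 37.4 and 99.3 RPKM in Y1cKO by RNA-seq. It shared its lowest library with Ppara, which follows from its selection by pattern over the same libraries. For Rxra they were Lmna at 0.03 and Maf at 0.04, beside a median of 0.32. For Cebpa they were Cryab at 0.09 and Palm at 0.09, and for Cebpd they were Pim3 at 0.10 and Slc22a17 at 0.14, beside medians of 0.48 and 0.53.

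The other pairs nearest in pattern were Ext2 and Fat1 for Pparg, Gskip and Ppp1r35 for Cebpb, Zfp874b and Msto1 for Ebf1, Palmd and Nrg4 for Ebf2, Trafd1 and Sowahc for Klf15, and Fam160b2 and Abcd4 for Esrra. Nrg4 encodes a factor secreted by brown fat. It had 43.3 and 34.3 RPKM in Y1CTL and 40.6 and 47.3 RPKM in Y1cKO by RNA-seq, and 43.7 and 72.0 RPKM in Y1CTL and 46.0 and 40.4 RPKM in Y1cKO by Ribo-seq. Y1CTL replicate 2 was the highest by Ribo-seq and Y1cKO replicate 2 the lowest, a likeness to Ebf2 that follows from its selection by pattern.

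Relatives of the members, the genes that act with them and the genes they switch on gave the surroundings. Of 14 paralogs tested by RNA-seq, 12 lay above 0 and 2 below, with a median log2 difference of 0.28, and 0 passed an adjusted p of 0.05. Cebpg, a CEBP protein without an activation domain of its own, had 9.07 and 9.75 RPKM in Y1CTL and 15.0 and 15.4 RPKM in Y1cKO by RNA-seq. By Ribo-seq Cebpg had 66.3 and 67.9 RPKM in Y1CTL and 65.0 and 69.6 RPKM in Y1cKO. It was thus separated by genotype in RNA-seq and not in Ribo-seq, as were Cebpa, Cebpb, Cebpd, Pparg, Rxra and Ebf2. Of all genes tested by RNA-seq, 36.9% were higher in both Y1cKO libraries. Ppard, the third PPAR gene, had 10.2 and 10.1 RPKM in Y1CTL and 16.3 and 14.9 RPKM in Y1cKO by RNA-seq, and 6.26 and 6.07 RPKM in Y1CTL and 5.97 and 6.62 RPKM in Y1cKO by Ribo-seq. By Ribo-seq 11 of 15 paralogs lay above 0, with a median of 0.10.

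Of 34 coactivators, corepressors and partner factors, 26 lay above 0 by RNA-seq with a median of 0.15, which is near the 0.17 of all genes, and 16 lay above 0 by Ribo-seq with a median of -0.02. Of 24 adipocyte target genes of PPARG and CEBPA, 20 lay above 0 by RNA-seq with a median of 0.40 and 8 by Ribo-seq with a median of -0.04. Most of the adipocyte markers above, such as Adipoq, Plin1, Fabp4 and Lipe, are also in this list, so that the lists are not independent. Plin4, a lipid droplet protein, had 230 and 140 RPKM in Y1CTL and 360 and 364 RPKM in Y1cKO by RNA-seq, and 77.2 and 133 RPKM in Y1CTL and 105 and 96.0 RPKM in Y1cKO by Ribo-seq. Lpl, the lipoprotein lipase, had 9250 and 8694 RPKM in Y1CTL and 5900 and 6569 RPKM in Y1cKO by Ribo-seq (log2 difference -0.53, standard error 0.28, adjusted p = 1.00 from limma). In each of these lists 0 genes passed an adjusted p of 0.05 in either assay.

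Of 27 oxidative target genes of PPARA and ESRRA, 4 lay above 0 and 23 below by RNA-seq, with a median of -0.52, and 19 lay above 0 by Ribo-seq, with a median of 0.15, and 0 passed an adjusted p of 0.05 in either assay. Cidea, a lipid droplet protein of thermogenic fat cells, had 415 and 481 RPKM in Y1CTL and 88.6 and 285 RPKM in Y1cKO by RNA-seq. By Ribo-seq Cidea had 2457 and 741 RPKM in Y1CTL and 1857 and 1632 RPKM in Y1cKO. The list holds Ucp1 and other beige markers, and like Ppara it differed between replicates, with 26 of 27 genes above replicate 2 in replicate 1 of the Y1CTL Ribo-seq libraries, at a median ratio of 1.66.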

How the data were processed

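RNA-seq and Ribo-seq of iWAT gave 8 libraries, 2 per genotype and assay. The deposited RPKM values, 1 table for each library, were made by the authors from reads that they state were aligned to mm8 by HISAT2 2.2.1. How reads were counted, over which annotation and with which strand setting is not given in the sources used here, and the submitters' processing notes name DESeq2 with no role. RPKM was over transcript length for RNA-seq and coding length for Ribo-seq, and reads computed back from it were whole (within 0.01 read) for 100% of values.

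Genes averaging 0.5 RPKM or more in an assay entered limma 3.58.1 in R 4.3.3, with an intensity trend, on the log2(RPKM + 0.5) scale and with Benjamini-Hochberg adjustment over all genes tested. An exact permutation test of 2 against 2 cannot go below 0.333 and was not used. The 3 fits of differences between genotypes were tested on simulated data. The members and gene lists were chosen with earlier results of these data known, and lists are described by counts and medians alone. Named were the 10 members, Ythdf1, up to 4 genes of a list with the smallest p in a comparison, marker genes, and the 2 genes nearest to each member in pattern.

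Per the labels 1 lysate served both assays, so a shared replicate number was read as 1 animal for the block, the pairs and the check below. That reading is an assumption, since whether replicates came from separate mice is not stated. The main TE fits left the pairing out and took the 8 libraries as independent. With the block, the unadjusted p of the TE change from limma went from 0.0113 to 0.0371 for Rxra and from 0.0114 to 0.0304 for Cebpa. For Cebpd it went from 0.0104 to 0.00846. Column headers in the RNA-seq tables of Y1cKO swap the 2 replicate numbers given by the labels, which were followed. As a check of the pairing by number, deviations from the group mean were correlated across genes between the assays of 1 animal. The correlations by the labels were -0.14 in Y1CTL and -0.24 in Y1cKO, so that the values did not bear the pairing out. In Y1CTL replicates 1 and 2, B cell and lymph node markers summed to 4.11 and 280 RPKM by RNA-seq. By Ribo-seq they summed to 745 and 689 RPKM. With the numbers of the headers the Y1cKO correlation would take the opposite sign. Alternatives changed the pseudocount, filter, trend, scaling, centring, a fit over all 8 libraries, voom on reads, a block and each replicate left out. Figures were made with Python 3.11.15 and matplotlib 3.10.9.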

Additional observations from a re-analysis of the deposited data

How the results depend on the processing

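Of 497 values of members recomputed under an alternative, 449 kept their direction and their side of the threshold. A change of sign was found in 30, whether or not they also crossed the threshold. Of those that kept their sign, 8 were no longer past the threshold and 10 passed it newly. The order of the 10 genes was the same after scaling in both assays. A replicate block changed no call in RNA-seq, Ribo-seq or the TE change (0 genes each) and gave 4470 genes higher and 3763 lower for the TE level, and with the animals crossed between the assays, which was chosen after seeing the data, 2 members and 4624 genes were called higher in TE level and 0 for the TE change. Leaving out 1 replicate leaves an arm with 1 library, which is assumed to vary like the others. Genes called then numbered 0 to 43 higher and 0 to 13 lower in Ribo-seq, 0 to 265 higher and 0 to 400 lower in RNA-seq, and 0 to 508 higher and 0 to 455 lower for the TE change. Members called numbered 0 to 2 higher in RNA-seq, 0 to 3 lower for the TE change, and 1 to 2 higher and 3 to 5 lower in TE level, where 3929 to 4688 genes were called higher and 3259 to 4035 lower. The highest RNA-seq and TE change counts came without Y1CTL replicate 1. The signs that turned on leaving out a replicate fell within these ranges of log2 values. In Ribo-seq they were -0.44 to 0.79 for Ppara, -0.25 to 0.060 for Rxra, -0.52 to 0.35 for Cebpa, -0.31 to 0.29 for Cebpd, -0.69 to 0.0011 for Ebf2 and -0.059 to 0.49 for Esrra. In RNA-seq they were -0.020 to 0.38 for Esrra, -0.074 to 1.06 for Klf15 and -1.02 to 0.24 for Ppara. For the TE change they were -0.095 to 0.46 for Ebf1, -0.42 to 1.55 for Ppara and -0.44 to 0.51 for Esrra, and for the TE level -0.029 to 0.15 for Pparg, -0.10 to 0.52 for Cebpa and -0.25 to 0.11 for Cebpb. Voom turned Cebpd in Ribo-seq to 0.041, and scaling turned Ebf1 in RNA-seq to -0.10. In TE level Cebpb turned to 0.023 with a pseudocount of 1 and to 0.14 with no filter, and Pparg to -0.030 with a filter of 2 RPKM, where 0 members were called higher because the mean RNA-seq value of Cebpd is under the filter. Without centring, Cebpb turned to 0.82, Ebf2 to 0.046 and Klf15 to 0.020, with 7421 genes and 5 members called higher and 1685 genes and 0 members lower, since the median gene then stands at 0.94. Apart from those given, the cause of each change was not tested. Cebpd rested on 9 and 18 RNA-seq reads in Y1CTL, which limits the precision of its values.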
